A study of Drosophila melanogaster with 16 samples.

Results

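WOC is a zinc-finger protein of Drosophila melanogaster that binds chromatin and is known as a partner of ROW and HP1c. Its sites in fly heads were set against H3K4me3, the trimethylated form of histone H3 at lysine 4. All 4896 peaks of the WOC list were used, out of 23128 peaks in the 5 lists of the study, and each was placed by the number of H3K4me3 peaks it overlapped by at least 1 bp. Of the 4896, 2826 overlapped none, 1696 overlapped 1 and 374 overlapped 2 or more. The distance from the centre of each WOC peak to the nearest H3K4me3 summit, the highest point of a peak, was then measured on its left and on its right.

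Chromatin immunoprecipitation with sequencing was carried out on whole heads of flies of the genotype Actin-gal4/+ (W1118), labelled as control, which carried the Actin-gal4 driver over a wild-type chromosome. All groups shared this genotype, and the antibody was the only difference between them that the labels gave. There were 3 libraries each for WOC, H3K4me3, ROW and HP1c and 2 each for HP1b and IgG. Neither the age nor the sex of the flies is given in the labels. A head holds many cell types, so a WOC peak and an H3K4me3 peak at 1 place need not come from the same cells.

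Nucleosomes on both sides of an active transcription start carry H3K4me3, while the start itself is depleted of nucleosomes. The mark therefore often forms a valley with a shoulder on 1 side or on both, and proteins bound at a start tend to sit in that valley. WOC takes its name from the mutant phenotype "without children" and was first known for a role in the synthesis of the moulting hormone ecdysone. ROW is a zinc-finger protein of the same complex, and HP1c and HP1b are members of the heterochromatin protein 1 family, whose chromodomains bind methylated histone tails.

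Each antibody had 1 list in which its replicates had been combined, so the spread between replicates and the depth of the libraries are unknown. No test over samples was possible and none is given. The 95% intervals in brackets are Wilson intervals for shares and order-statistic intervals for medians. They cover counting error over peaks only, which are not replicates of a condition. The WOC list holds positions without a value per peak, and the fold enrichment of H3K4me3 peaks over background is the authors' own value. All coordinates are dm3.

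WOC peaks without the mark made up 57.7% of the list (56.3 to 59.1), those with 1 H3K4me3 peak 34.6% (33.3 to 36.0) and those with 2 or more 7.64% (6.93 to 8.42). Of the 2070 WOC peaks that met the mark at all, 18.1% (16.5 to 19.8) reached at least 2 H3K4me3 peaks. Exactly 2 were met by 372 peaks, and 3 by the remaining 2. Seen from the mark, of the 5554 H3K4me3 peaks outside the unplaced contigs U and Uextra, where WOC had no peak, 2289 (41.2%, 39.9 to 42.5) overlapped 1 WOC peak and 78 (1.40%) overlapped at least 2.

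The WOC peaks that joined a pair of H3K4me3 peaks had a summit at a similar distance on each side. The nearest summit on the left lay at a median of 422 bp (404.5 to 445.5) and the nearest on the right at 415.8 bp (408.5 to 432) from the WOC centre. The summits were 864.5 bp apart in the median (832 to 894), with the middle 50% of spacings between 746.2 and 1054 bp, and 83.2% (79.0 to 86.6) lay between 600 and 1200 bp. The centre fell in the middle part of the interval, from 0.4 to 0.6 of the way across, in 82.1% of the 374 peaks (77.9 to 85.6). A WOC peak that reaches both marks can lie only so far from the middle of the gap, so this central position follows largely from the overlap rule. The nearer summit was on the left in 48.5% of those with unequal distances (43.5 to 53.6), so no side of the reference strand was preferred beyond counting error. For 372 of the 374 the overlapped peaks were those that owned the nearest summit on each side.

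**Figure D1:**
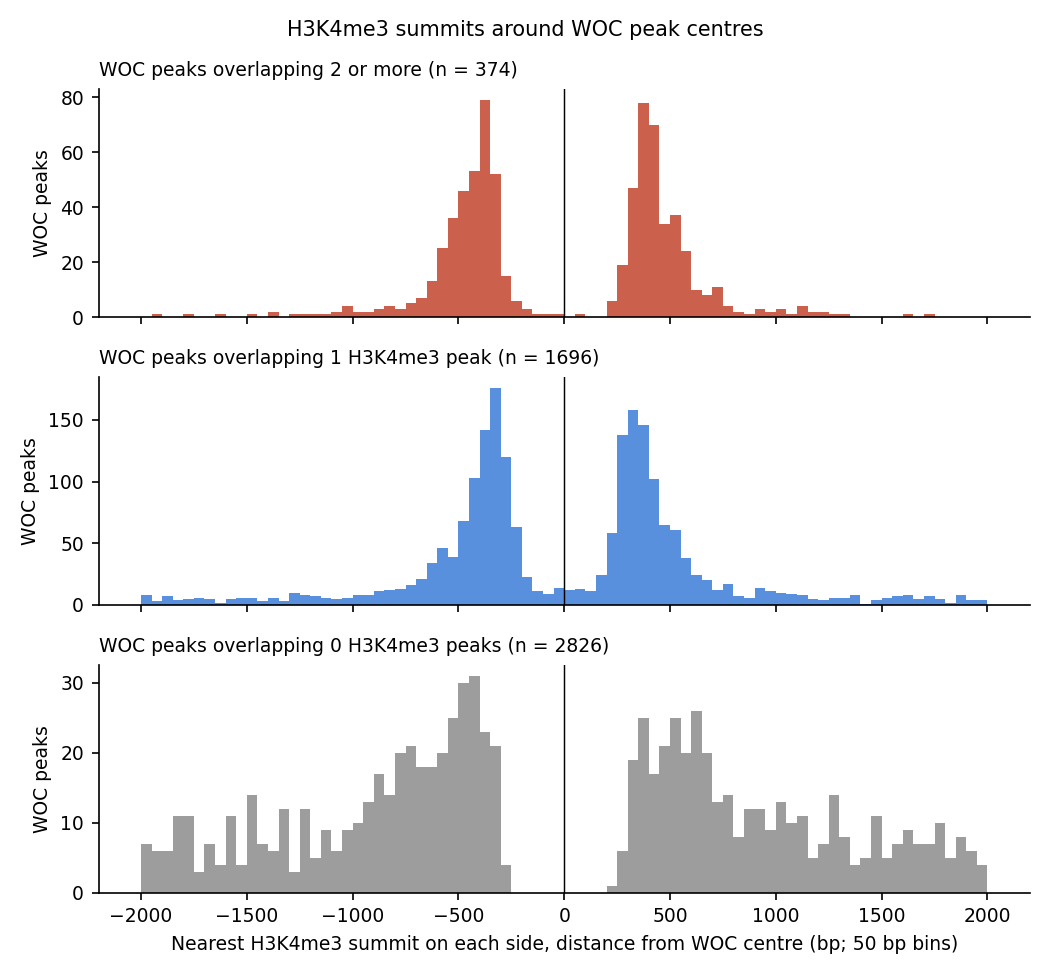
Number of WOC peaks (y axis) by the distance from the WOC centre to the nearest H3K4me3 summit on the left (negative) and on the right (positive), in bins of 50 bp out to 2000 bp, for WOC peaks that overlapped 2 or more, 1 or no H3K4me3 peak. With 2 or more, summits stand on both sides at medians of 422 and 415.8 bp. With none, no summit lies under 200 bp, which follows in part from the overlap rule, and most lie outside the plotted range.

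These bridging peaks covered the space between the marks and touched only the facing edges. For the 372 WOC peaks with exactly 2 H3K4me3 peaks, the gap between the marks was 379 bp in the median (368 to 401) and took up 67.1% of the WOC peak (63.7 to 68.8). The overlap was 94 bp with the left mark (85 to 104) and 95.5 bp with the right mark (88 to 106). Within these H3K4me3 peaks the summit stood nearer the edge that faced WOC in 87.0% of 744 (84.3 to 89.2), at a median of 35.4% of the peak's width from that edge. In the 3187 H3K4me3 peaks without WOC the summit was nearer the left edge in 1649, at a median of 48.8% of the width from that edge. The left edge is an arbitrary side, so a near-even split there does not show how far those summits leaned. The facing edges of neighbouring marks without WOC were not compared here. Few bridging peaks reached over a summit, 46 of the 374 (12.3%, 9.35 to 16.0), and the WOC centre itself lay inside a mark in 9.

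The marks to the left and to the right of bridging peaks, sides set by the reference strand, were similar in strength. Fold enrichment had a median of 4.05 on the left (3.95 to 4.18) and 3.98 on the right (3.87 to 4.08). The left was the stronger in 53.8% of the pairs that differed (48.7 to 58.8). These sides are arbitrary, so the values do not show whether the marks within a pair matched. Within a pair the stronger mark exceeded the weaker by 1.24 times in the median (1.19 to 1.28), and by less than 1.44 times in 75% of pairs. This ratio was not compared with pairs lacking WOC. Across the 372 pairs the fold on the left and that on the right were weakly related (Spearman's rho 0.243, a description across sites that share the same libraries). Among adjacent summits 500 to 1500 bp apart, rho was 0.102 with a WOC centre between them and 0.0761 without.

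The arrangement at strong marks is shown by 3 bridging sites, chosen as those with the highest fold in the weaker mark on 2L, 3L, 3R and X. On 3L a WOC peak of 1539 bp at 23331120 to 23332658 lay between H3K4me3 peaks at 23329583 to 23331226 (fold 7.21) and 23332293 to 23334065 (fold 8.11), with summits at -928.5 and 712.5 bp from the WOC centre, negative being left. On 2L a WOC peak at 10231483 to 10232537 had summits at -864.5 bp (fold 5.93) and 685.5 bp (fold 6.21). Farther along 2L, the WOC peak at 10263462 to 10264384 was less central, with summits at -570.5 bp (fold 6.72) and 1617.5 bp (fold 6.13). The spacings of 1641, 1550 and 2188 bp, in this order, all exceeded the median of the class. ROW overlapped the WOC peak at each of the 3 sites, and HP1c at 2 of them. Over all bridging peaks on 2L, 2R, 3L, 3R and X, ROW was at 99.4% and HP1c at 49.7%.

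The peaks that met 3 H3K4me3 peaks are named because there were only 2, after their values were seen. The WOC peak on chromosome 4 at 1217078 to 1222674, 5597 bp wide, overlapped H3K4me3 peaks of fold 8.02, 3.54 and 1.85 from left to right. The other, on X at 20381647 to 20382608, overlapped a mark of fold 3.87 on its left and weaker marks of fold 2.0 and 2.28 at its middle and right.

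The pairing was also read from the mark, without using overlap. On the placed contigs there were 5542 pairs of adjacent H3K4me3 summits, of which 947 were 500 to 1500 bp apart, and 645 of these (68.1%, 65.1 to 71.0) had a WOC centre between the summits. The share went from 67.9% at 600 to 700 bp (58.7 to 75.8) to 77.1% at 800 to 900 bp (69.9 to 83.1) and 53.8% at 1200 to 1500 bp (46.8 to 60.6). At 2000 to 3000 bp it was lowest, at 39.1% (34.9 to 43.4), and it was higher again at 3000 to 5000 bp (44.0%, 40.4 to 47.6), 5000 to 10000 bp (45.5%, 42.2 to 48.7) and beyond 10000 bp (62.5%, 60.5 to 64.5). Longer intervals offer more room. Per kb between summits there were 1.03 WOC centres at 600 to 700 bp, 0.907 at 800 to 900 bp, 0.182 at 2000 to 3000 bp and 0.0254 beyond 10000 bp.

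**Figure D2:**
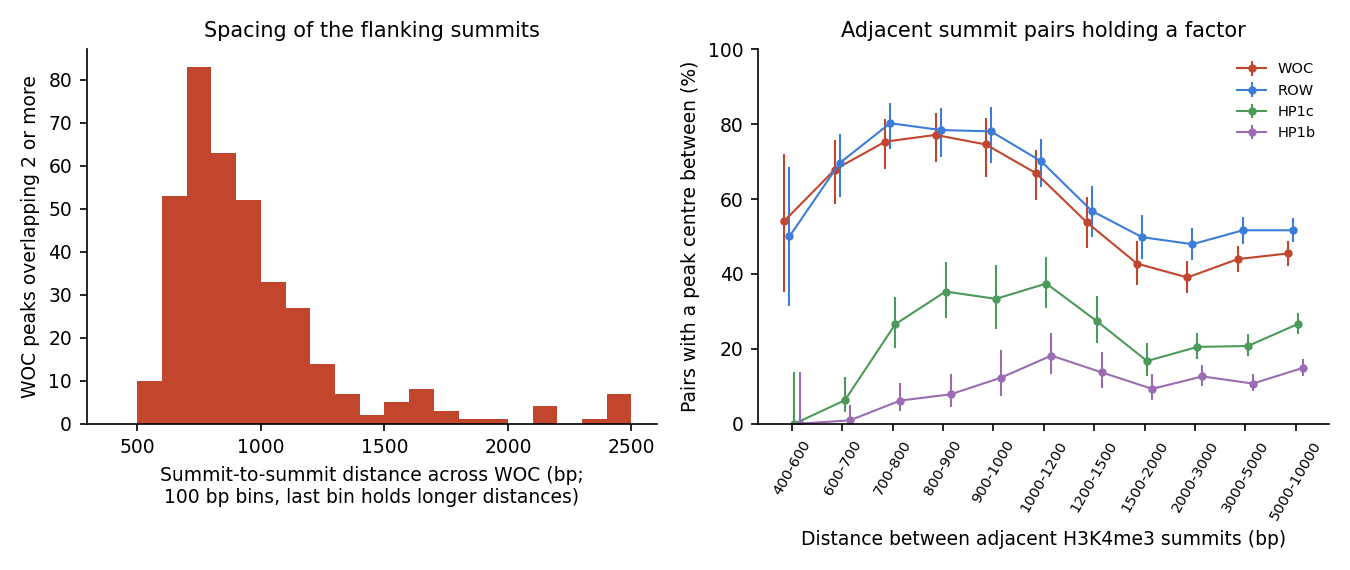
Left, number of WOC peaks that overlapped 2 or more H3K4me3 peaks by the summit-to-summit distance across them, in bins of 100 bp. Right, share of adjacent H3K4me3 summit pairs with a centre of WOC, ROW, HP1c or HP1b between them by the distance between the summits, with 95% Wilson intervals; WOC reaches 77.1% at 800 to 900 bp and is at 39.1% at 2000 to 3000 bp.

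In the close pairs most WOC centres were near the middle, and in longer ones most were nearer 1 end. Among the 644 pairs of 500 to 1500 bp with exactly 1 WOC centre, it stood at a median of 50.1% of the spacing (49.0 to 50.8), with 68.9% of centres in the part from 0.4 to 0.6 (65.3 to 72.4). Among the 874 pairs of 1500 to 10000 bp with exactly 1, only 6.52% (5.07 to 8.36) were in that part, and the centre lay 401 bp from the nearer summit in the median (386.5 to 418), with the middle 50% between 309 and 656 bp. Close pairs with WOC were spaced at 896 bp (873 to 923) and those without at 1004 bp (962 to 1074). Their weaker mark had a median fold of 3.18 (3.08 to 3.32) with WOC and 2.60 (2.52 to 2.72) without, and the stronger mark 4.31 (4.18 to 4.39) and 3.82 (3.67 to 3.98). By arm, 65.0% of close pairs on X to 74.1% on 3L held WOC, with overlapping intervals, and 9 of 15 on chromosome 4.

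ROW filled the same close pairs about as often, with a centre in 71.0% of the 947 (68.0 to 73.8), while HP1c had one in 28.1% (25.3 to 31.0) and HP1b in 10.3% (8.57 to 12.5). The share of marked peaks that bridged was 17.7% for ROW (16.2 to 19.2), 4.44% for HP1c (3.15 to 6.24) and 2.89% for HP1b (1.58 to 5.24), against 18.1% for WOC. These lists share many sites and differ in their number of peaks, and the differences were not tested. A peak can bridge only if it is wider than the gap between the marks. Peaks were narrower in the HP1c and HP1b lists (medians 373 and 371 bp) than in the ROW and WOC lists (449.5 and 423 bp). The bridging shares were not adjusted for width, so they do not separate the proteins from the widths of their peaks.

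WOC peaks with 1 H3K4me3 peak had a summit close by on 1 side only. The nearer summit was 355 bp away in the median (348 to 361.5), with 82.6% between 200 and 600 bp (80.7 to 84.3), and 6.90% under 200 bp. In 98.6% (98.0 to 99.1) it belonged to the overlapped mark, so this distance follows in part from the overlap rule. The nearer summit was on the left in 49.6% (47.2 to 51.9), so the mark stood on either side alike. The summit on the other side was 5216 bp away in the median (4826 to 5767), but in 226 peaks (13.3%) both lay within 1 kb. These 226 overlapped only 1 of the marks beside them.

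The overlap took 3 forms in this class. In 1217 peaks (71.8%, 69.6 to 73.9) WOC crossed 1 edge of the mark, in 443 (26.1%, 24.1 to 28.3) it lay wholly inside the mark, and in 36 (2.12%, 1.54 to 2.92) it spanned the mark from end to end. This split was chosen after the values were seen.

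At the crossing peaks the centre was 138.5 bp from the edge of the mark (131 to 144.5) and 376 bp from its summit (367 to 384), and these marks were 659 bp wide in the median (644 to 680). The marks that held a WOC peak inside were far wider, with a median of 1423 bp (1403 to 1454). There the WOC centre stood at 50.9% of the mark's width (49.7 to 51.9), and in 68.4% of cases (63.9 to 72.6) it fell in the middle part from 0.4 to 0.6. The summit of such a mark was still beside WOC, at 323 bp (312.5 to 332.5), with only 8.13% closer than 200 bp (5.93 to 11.1). A WOC peak wholly inside a mark needs a wide mark and cannot have its centre at the mark's ends, so this position follows in part from how the form was defined. The smallest gap between neighbouring H3K4me3 peaks in the list was 243 bp.

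The 36 spanned marks differed in several ways. They were narrow, at 357.5 bp (333 to 472), and weak, at a fold of 2.09 (1.87 to 2.57) against 4.18 at crossed marks (4.09 to 4.28) and 4.67 at marks with WOC inside (4.54 to 4.80). A WOC peak of this form covers the summit by definition, and its centre was 70.5 bp from it in the median (48.5 to 119). Chromosome 4 and the heterochromatin contigs held 18 of the 36, against 5.34% of crossing peaks and 5.64% of inside peaks. HP1c was present at 29 of the 36 and HP1b at 29, against 43.2% and 23.2% of crossing peaks and 28.9% and 14.4% of peaks inside a mark. Only a WOC peak wider than the mark can span it, and these were 699 bp wide in the median (538 to 876), against 494 bp at crossed edges (484 to 509) and 411 bp inside marks (400 to 431).

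Among peaks with 1 mark, those with the highest H3K4me3 fold on 2L, 3L, 3R and X covered different positions. The WOC peak on 3L at 10357266 to 10357823 overlapped a mark of fold 9.36 and 3505 bp with its summit 23 bp to the right of the WOC centre. On 3L at 23143338 to 23144012 the summit (fold 8.44) was at -364.5 bp and the next on the right 56354.5 bp away. On 2L at 22690719 to 22691580 the summit (fold 8.34) was at -571 bp and the next on the right 44979 bp away.

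A few H3K4me3 peaks carried WOC at both ends. Of the 77 with exactly 2 WOC peaks, 65 (84.4%, 74.7 to 90.9) had the WOC centres on opposite sides of the summit, 1285 bp apart in the median over all 77 (1154 to 1557). Marks with at least 2 WOC peaks were wide, at 1460 bp (1217 to 1782), and strong, at a fold of 5.61 (5.11 to 6.18). A wide mark meets 2 WOC peaks more easily, so this width follows in part from the count. Strong marks are also wide, and the fold of these marks was not compared at equal width.

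Strong marks carried WOC more often than weak ones. In the 4 groups of H3K4me3 peaks from the lowest to the highest fold, cut at equal numbers on the placed contigs, WOC overlapped 19.8% (17.8 to 22.0), 37.2% (34.7 to 39.7), 51.0% (48.3 to 53.6) and 62.7% (60.1 to 65.2). Strong marks are also wide, and a wide mark meets a WOC peak more easily. Among marks of 484 to 635 bp alone the shares went from 26.8% (22.5 to 31.6) in the weakest group to 56.1% (50.8 to 61.3) in the strongest, and the part of width in the whole list was not tested. Of the 3187 marks that no WOC peak touched, 22.3% (20.9 to 23.8) had a WOC centre within 1 kb of the summit.

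WOC peaks without the mark ranged from just beside it to far from it. Of the 2826, 17.1% (15.7 to 18.5) had a summit within 1 kb, 26.0% (24.4 to 27.6) within 2 kb and 55.0% (53.1 to 56.8) within 10 kb, and the nearer summit was 7891 bp away in the median (7110 to 8534). None lay under 200 bp, which follows in part from the overlap rule, since a summit that close mostly brings an overlap. Within 50 kb were 85.6% (84.3 to 86.8), and the mitochondrial peak had no summit on its contig.

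WOC peaks just inside and just outside the threshold of 1 bp were similar in width and in ROW. The 288 WOC peaks whose longest overlap was at most 50 bp had a median width of 448 bp (423 to 486), a nearer summit at 384 bp (371.5 to 394) and ROW in 92.0%. The 145 peaks that missed the mark by less than 50 bp were 412 bp wide (393 to 453), had the nearer summit at 420.5 bp (409 to 458) and ROW in 95.2%. Both groups were chosen for lying near an edge of a mark, which brings their summit distances close. The distance was still longer outside the mark, and HP1c and HP1b were not compared.

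The farthest WOC peaks from any summit on 2L, 3L, 3R and X lay deep in unmarked stretches. On 3L at 24291532 to 24291812 the summits were at -224174.5 and 239141.5 bp. On X at 22157345 to 22157895 they were at -215163.5 and 248147.5 bp, and on 3R at 2683896 to 2684468 at -198502.5 and 209135.5 bp. HP1b overlapped all of these 3 peaks, ROW the peaks on X and 3R, and HP1c those on 3L and 3R. The widest unmarked peaks on these arms, 2120 bp on 3R (7604111 to 7606230), 1813 bp on 2L (21391517 to 21393329) and 1633 bp on 2L (13522745 to 13524377), all overlapped ROW and HP1c. Over all unmarked WOC peaks on 2L, 2R, 3L, 3R and X, ROW was at 72.3%, HP1c at 57.4% and HP1b at 37.9%. Wide peaks meet others more easily, and the named sites were not tested against these shares.

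The company of WOC changed with distance from the mark. On the arms 2L, 2R, 3L, 3R and X, ROW overlapped 99.4% of WOC peaks with 2 or more marks (98.0 to 99.8), 94.6% of those with 1 (93.4 to 95.6) and 72.3% of those with none (70.4 to 74.1). Among the last, ROW was present at 92.7% within 1 kb of a summit (442 of 477), at 69.7% from 2 to 5 kb (64.6 to 74.3) and at 57.8% beyond 50 kb (51.1 to 64.3). HP1c went the other way, from 36.1% within 1 kb (31.9 to 40.5) to 55.1% from 2 to 5 kb (49.8 to 60.3) and 75.4% beyond 50 kb (69.1 to 80.7). HP1b went from 17.0% (13.9 to 20.6) to 33.2% (28.5 to 38.4) and 54.0% (47.3 to 60.6). In ROW and HP1 content, unmarked WOC peaks within 1 kb of a summit were close to those with 1 mark, where HP1c was at 37.4% (35.1 to 39.8) and HP1b at 18.6% (16.8 to 20.6).

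**Figure D3:**
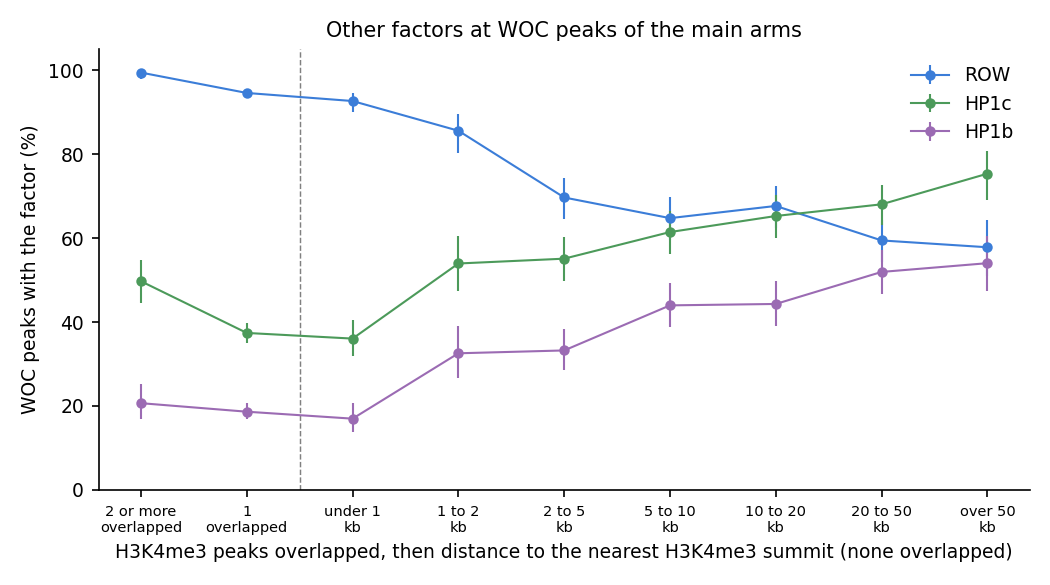
Share of WOC peaks on 2L, 2R, 3L, 3R and X that overlapped ROW, HP1c or HP1b (y axis, percent, with 95% Wilson intervals), for WOC peaks with 2 or more or 1 H3K4me3 peak (left of the dashed line) and for unmarked ones by distance to the nearest summit. ROW falls from 99.4% to 57.8%, while HP1c is at 36.1% within 1 kb and 75.4% beyond 50 kb.

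HP1c was not lowest at the bridging peaks. It overlapped 49.7% of them (44.6 to 54.9) on these arms, above the 37.4% of peaks with 1 mark, while HP1b was at 20.7% (16.8 to 25.2) and 18.6%. Bridging peaks are also wider, which makes any overlap easier. Over all contigs HP1c was at 40.3% of the peaks with 1 mark (38.0 to 42.6). There it was at 43.2% of those crossing an edge (40.5 to 46.0). Of the narrower ones inside a mark it was at 28.9% (24.9 to 33.3). The part of width was not tested here. Taken by the distance of the summits in place of overlap, HP1c was at 40.2% of WOC peaks with summits within 1 kb on both sides (36.4 to 44.1) and 38.1% of those with a summit within 1 kb on 1 side (35.9 to 40.4).

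Where WOC and ROW overlapped, their centres were closest at the bridging peaks, at a median of 21 bp (18.5 to 23), against 28 bp at peaks with 1 mark (26 to 29.5) and 33.5 bp at unmarked ones (31.5 to 36). Few marked WOC peaks lacked ROW, 91 of the 1696 with 1 mark and 2 of the 374 bridging ones. The 91 had a median width of 305 bp (282 to 320) against 486 bp (475 to 493) with ROW, and unmarked peaks differed likewise, with 308 bp (301 to 319) for the 815 without ROW and 412 bp (404 to 419) for those with it. The 2 bridging peaks without ROW were 545.5 bp wide in the median.

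WOC peaks were wider with more marks. The median width was 374 bp (366 to 381) with none, 475 bp (465 to 485) with 1 and 624 bp (594 to 650) with 2 or more, and the share above the list's median of 423 bp was 37.7%, 61.5% and 90.1%. The range of widths overlapped between the classes, with the middle 50% at 295 to 505 bp, 361 to 626 bp and 505 to 800.2 bp. The order held on each of the arms 2L, 2R, 3L, 3R and X, where the medians were 347 to 391 bp with none, 460 to 475.5 bp with 1 and 591 to 642 bp with 2 or more. Part of this follows from the count itself, because a WOC peak can reach a pair of marks only if it is wider than the gap between them. Grouped by distance instead, a choice made after seeing the data, the medians were 372 bp (364 to 379) with no summit within 1 kb, 457 bp (445 to 466) with a summit on 1 side and 546.5 bp (527 to 570) with summits on both sides.

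**Figure D4:**
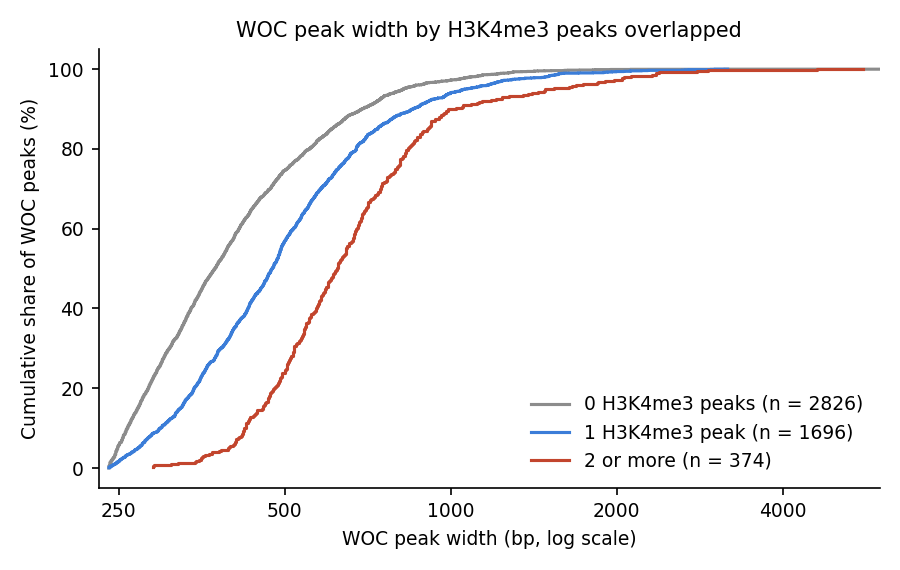
Cumulative share of WOC peaks (y axis, percent) by peak width (x axis, bp, log scale) for peaks that overlapped 0, 1 or 2 or more H3K4me3 peaks. The medians are 374, 475 and 624 bp; the mitochondrial peak lies beyond the right end of the axis.

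Unmarked WOC peaks had their highest median width near the mark, though the intervals within 2 kb and beyond 50 kb overlapped. Peaks with ROW were wider and more frequent near the mark, and the part of ROW was not tested. Their median width was 400.5 bp (389 to 413) within 2 kb of a summit, 365 bp (350 to 380) from 2 to 10 kb, 360 bp (353 to 370) from 10 to 50 kb and 372.5 bp (354 to 393) beyond. On chromosome 4 every class was wider, with 449 bp for the 153 unmarked peaks (398 to 496), 653.5 bp for the 54 with 1 mark (500 to 837) and 2060 bp for the 15 bridging peaks (1851 to 2803).

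Among the large arms the intervals of the marked share overlapped except between X and 3R, and the share was lower on chromosome 4 and in heterochromatin. WOC peaks met the mark in 46.1% on 2L (42.9 to 49.4), 48.8% on 2R (45.3 to 52.2), 43.9% on 3L (40.7 to 47.1), 49.0% on 3R (45.9 to 52.1) and 41.6% on X (37.8 to 45.5). Chromosome 4, a small chromosome rich in heterochromatin, had 31.1% (25.4 to 37.4), and the heterochromatin contigs as a group 12.1% (9.41 to 15.4). Bridging peaks made up from 65 of 812 WOC peaks on 2R to 88 of 978 on 3R over the large arms, 6.76% on chromosome 4 (4.14 to 10.8) and 1 of 455 on the heterochromatin contigs. These contigs held 14.2% of unmarked WOC peaks (12.9 to 15.5), 3.18% of those with 1 mark and 0.267% of bridging ones. The H3K4me3 list had only 63 peaks there, and WOC overlapped 48 of them (76.2%), as it did 70 of 96 on chromosome 4 (72.9%, 63.3 to 80.8), against 34.0% of 907 on X (31.0 to 37.1) and 42.2% to 45.1% on the other large arms.

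**Figure D5:**
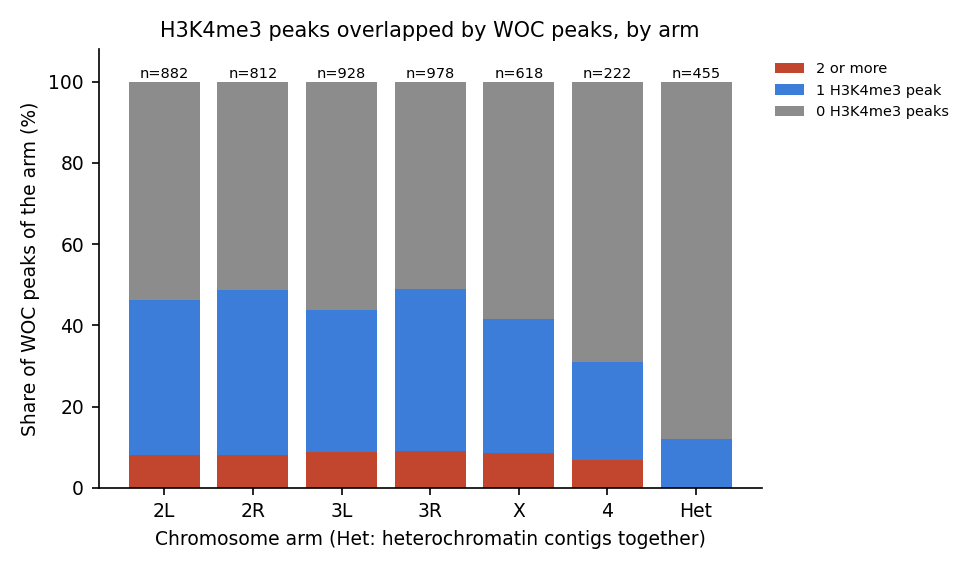
Share of the WOC peaks of each arm (y axis, percent) that overlapped 2 or more, 1 or no H3K4me3 peak, with the number of WOC peaks above each bar and the heterochromatin contigs pooled as Het. Any overlap ranges from 41.6% on X to 49.0% on 3R over the large arms and is 31.1% on chromosome 4 and 12.1% on the heterochromatin contigs.

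The geometry was alike over the large arms but wider on chromosome 4. The summits on the 2 sides of bridging peaks were 828 to 869 bp apart in the median on 2L, 2R, 3L, 3R and X and 1784 bp apart at the 15 bridging peaks of chromosome 4 (1302 to 2635). For peaks with 1 mark the nearer summit was at 341 to 362.5 bp on the large arms and at 598.8 bp on chromosome 4 (377 to 715.5). On X more of the unmarked peaks lay near the mark, with 39.6% of 361 within 2 kb of a summit (34.7 to 44.7), against 25.0% to 31.3% on the other large arms, 13.1% on chromosome 4 (8.62 to 19.3) and 5.50% on the heterochromatin contigs (3.66 to 8.19). On X, HP1c was at 38.8% of unmarked peaks (33.9 to 43.9), 16.7% of those with 1 mark (12.2 to 22.4) and 34.0% of the 53 bridging ones (22.7 to 47.4). On chromosome 4 HP1c was frequent in every class. It was at 83.7% of unmarked peaks (77.0 to 88.7), 75.9% of those with 1 mark (63.1 to 85.4) and all 15 bridging ones. The bridging peaks there were also the widest in the median, which makes any overlap easier.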

How the data were processed

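WOC and H3K4me3 binding was profiled in 3 libraries each. Bowtie2, SAMtools, MACS2, deepTools and the build dm3 are named in the submitters' processing notes. Versions, thresholds and how replicates were combined were not given in the sources used here. Only peak positions are in the deposited WOC, ROW, HP1c and HP1b lists. For each H3K4me3 peak the authors also deposited a fold enrichment (a ratio), a score and a -log10 q-value (at least 3.02), and that list's peak names point to MACS2 against IgG. Summits were the start plus the offset column. No reads were used, so depth is unknown: an absent peak shows only that none was called.

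Overlap meant at least 1 bp. Distances ran from the WOC centre to the nearest summit on each side; the mitochondrial WOC peak had none. Overlap and distance code recovered planted sites in simulated data. Sites named were the 3 with the strongest weaker mark, the strongest mark, the greatest width or the greatest distance, by class, on 2L, 3L, 3R and X. Members, classes and rules were chosen with earlier results of these data known. The gene table at hand is of a later release, so genes and sequences were not analysed here. The work used SciPy 1.17.1, pandas 2.3.3 and NumPy 2.4.6 under Python 3.11.15, with plots from matplotlib 3.10.9. Stricter overlap, a permitted gap, stronger marks, wider WOC peaks, large arms alone, mark centres and merged marks were tried as alternatives.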

Additional observations from a re-analysis of the deposited data

How the results depend on the processing

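No paired analysis was possible because the lists carry no replicate numbers, and for that reason no replicate could be left out. Of 73 alternative values, 29 stayed inside the interval of the reported value. Part of the 29 could not move, so the count overstates how stable the results were. These were every value after merging marks, and the close-pair share under the stricter overlap and the permitted gap, which does not use overlap. With mark centres, the shares by count, the widths and the share on chromosome 4 and heterochromatin use no summit and were also fixed. With an overlap of at least 0.5 of the shorter peak, 13.2% of WOC peaks had 1 mark and 0.0204% (a single peak, 5597 bp wide, with summits 1059 bp apart) had 2 or more, so the bridging class rests on edge overlaps; the distance to the nearer summit with 1 mark was 312 bp, 50.8% of unmarked peaks lay within 2 kb of a summit, unmarked width was 421 bp and 11.1% of peaks on chromosome 4 and the heterochromatin contigs were marked. With a gap of up to 200 bp, 12.5% had 2 or more and 37.1% had 1, at 374.5 bp, 15.4% of the unmarked lay within 2 kb, and bridging width was 578 bp. With only H3K4me3 peaks above the median -log10 q, the shares were 3.21% and 28.1%, spacing 951 bp, distance 368 bp, unmarked within 2 kb 11.1%, widths 389 and 708 bp, chromosome 4 and heterochromatin 14.5%, and close pairs holding WOC 85.2%. Above the median fold they were 3.66% and 28.7%, 938 bp, 369.5 bp, 12.1%, 387.5 and 687 bp, 13.1% and 83.8%. With only WOC peaks wider than the median they were 13.8% and 42.6%, distance 396.5 bp, unmarked within 2 kb 29.9%, unmarked width 566.5 bp, chromosome 4 and heterochromatin 28.2%, and close pairs 50.9%. On the arms 2L, 2R, 3L, 3R and X alone, which give no value for chromosome 4, 8.49% had 2 or more, 37.6% had 1 and 30.5% of the unmarked lay within 2 kb. With the centre of the mark in place of its summit, spacing was 1069.75 bp and distance 411.5 bp. With summits within 1 kb on both sides in place of overlap, chosen after seeing the data, width was 546.5 bp. In each setting bridging peaks were wider than unmarked ones. Where the classes are set by overlap this order is largely fixed, since only a wide WOC peak reaches both marks. With the stricter overlap it rests on 1 peak. The settings with stronger marks, wider WOC peaks or large arms alone hold fewer peaks by construction, while the overlap and gap settings hold all of them. The cause of the shifts was not tested. Merging marks under 200 bp apart changed nothing, since no neighbours were that close.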
